A study of Mus musculus with 4 samples.

Results

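The genes described here are 53 genes of autophagy and of the lysosome, chosen by name as a program that BET proteins are known to repress. All 53 had a row in the table of 16591 genes, and 48 of them passed the filter on low counts and were tested. RNA sequencing reads were counted per gene in 2 libraries of a JQ1-resistant Eμ-Myc line (JQ1R) and 2 libraries of a JQ1-sensitive Eμ-Myc line (JQ1S). JQ1 is an inhibitor of BET proteins, readers of histone acetylation that act on transcription, and Eμ-Myc cells are B-lymphoma cells of C57BL/6 mice in which an immunoglobulin heavy-chain enhancer drives Myc. Cells of both lines are labelled early passage, were kept in the same asparagine-supplemented medium, and no drug is named as added before harvest. There is a single line of each kind, so an effect of resistance and other traits of either line cannot be told apart, and the labels do not say whether the libraries of a line came from separate cultures. In RNA from whole cultures, fewer cells that express a gene and less of its RNA per cell cannot be told apart.

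Autophagy encloses cytoplasm in a double membrane, the autophagosome, which fuses with the lysosome, where acid hydrolases digest the contents. The ULK1 kinase complex starts the process, the lipid kinase complex of VPS34 and Beclin 1 marks the membrane, and conjugation enzymes attach the ATG8 proteins to it. In human cells, transcription factors of the MiT/TFE family (TFEB, TFE3 and MITF) switch on lysosome and autophagy genes, and BET proteins have been described as repressors of many of the same genes.

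Promoter sequences of the members show where such factors could act, and they are given first because the levels of these genes are described against them. MiT/TFE factors, like MYC and its partners, recognise the E-box CACGTG, and in lysosome genes often the longer palindrome TCACGTGA. RefSeq promoter windows (GRCm38.p6, 250 bases before to 50 after a start site) were matched for 45 of the 53 members. These had 55 windows, and a gene was counted as holding a motif if any of its windows did. Of these 45, 12 (26.7%) held the E-box, against 12.5% of the 8302 tested genes and 8.09% of all 27025 genes that had a window. The 8-base palindrome, which contains the E-box, was in the windows of 7 of the 45 members (15.6%), against 2.43% of tested genes and 1.13% of all genes with a window. A palindrome longer by 1 base on each side, also searched, was found in 0 of 45 members and in 0.915% of tested genes. Each of these motifs reads the same on both strands, so 1 search covers both. The median GC content was 59.3% in the members' windows and 61.0% in those of tested genes. These counts describe letters in a window and not binding, and they carry no test.

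The windows of Lamp1 and Mcoln1 are shown whole because they held the most E-boxes near the start and the E-box and the palindrome side by side. The Lamp1 window lies at chr8:13158911-13159210 on the plus strand and the Mcoln1 window at chr8:3500269-3500568 on the plus strand. Shorter stretches show the palindrome in Atg3 (chr16:45158746-45158775, plus strand), Ctsa (chr2:164833749-164833778, plus strand), Ctsd (chr7:142387908-142387937, minus strand), Gla (chrX:134601182-134601211, minus strand), Atp6v0d1 (chr8:105566050-105566079, minus strand) and Atp6v1a (chr16:44139373-44139402, minus strand). All are written 5′ to 3′ on the strand of the gene, and capitals mark the E-box, or the whole palindrome where it was present.
Lamp1: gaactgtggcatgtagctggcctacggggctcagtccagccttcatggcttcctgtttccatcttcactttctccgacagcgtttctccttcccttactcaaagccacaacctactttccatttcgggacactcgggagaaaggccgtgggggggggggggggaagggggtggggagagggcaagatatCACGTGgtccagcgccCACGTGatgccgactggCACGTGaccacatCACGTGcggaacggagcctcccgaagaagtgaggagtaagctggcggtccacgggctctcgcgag
Mcoln1: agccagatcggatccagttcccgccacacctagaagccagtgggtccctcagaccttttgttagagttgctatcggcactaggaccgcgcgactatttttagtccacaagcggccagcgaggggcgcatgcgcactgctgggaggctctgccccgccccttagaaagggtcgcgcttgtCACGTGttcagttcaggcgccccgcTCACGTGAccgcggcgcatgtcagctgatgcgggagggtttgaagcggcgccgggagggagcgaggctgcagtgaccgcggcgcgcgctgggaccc
Atg3: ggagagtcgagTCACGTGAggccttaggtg
Ctsa: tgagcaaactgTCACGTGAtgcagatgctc
Ctsd: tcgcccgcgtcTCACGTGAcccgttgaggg
Gla: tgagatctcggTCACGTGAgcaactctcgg
Atp6v0d1: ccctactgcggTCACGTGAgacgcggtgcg
Atp6v1a: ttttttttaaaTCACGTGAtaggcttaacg

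Lamp1 had 4 E-boxes, the first bases of which lay at -61, -45, -28 and -15 relative to the first transcribed base (0), and none of them was part of the palindrome. Mcoln1 had an E-box at -71 and a palindrome E-box at -45. Ctsa had the palindrome at -12 and again at 5, and Gla at -227 and -194. The remaining members with an E-box alone were Atg5, Atg7, Atg14 and Ctsl. Some start sites lie inside the gene as annotated. The stretch with the Atg7 E-box (chr6:114670952-114670981, plus strand) lies in a gene that spans 114643097 to 114860614. That of Atg14 (chr14:47568418-47568447, minus strand) lies in a gene that spans 47540893 to 47570649. The palindromes of Ctsa, Ctsd, Atp6v1a and Mcoln1 also lie inside their genes as annotated. These genes span 164832873 to 164841032, 142375911 to 142388038, 44085402 to 44139705 and 3500457 to 3515232, in that order. Atg3 and Ctsd had an E-box in addition to the palindrome.

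**Figure D1:**
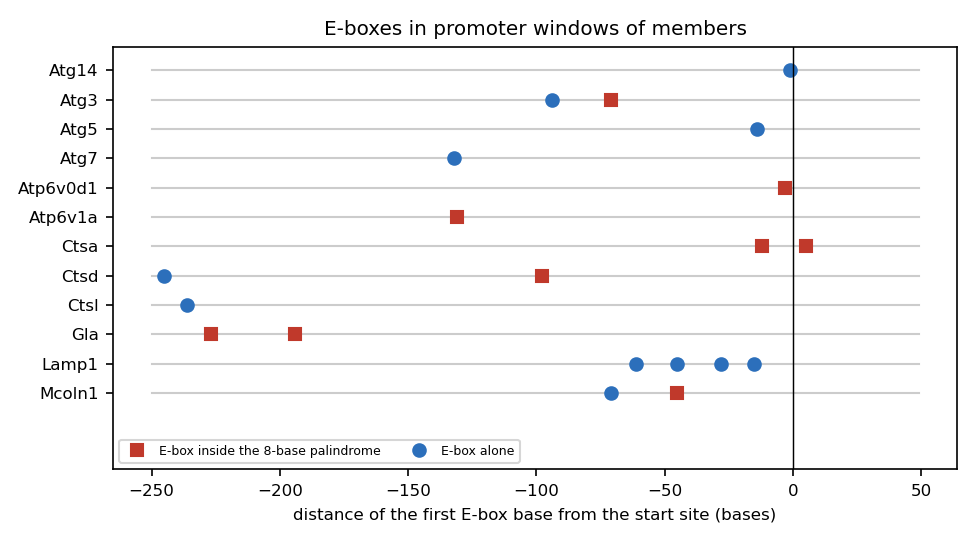
Places of the E-box in the promoter windows of the 12 members that held it. The horizontal axis is the distance of its first base from the start site in bases (grey lines are the windows, the black line the start), red squares are E-boxes inside the 8-base palindrome and blue circles are E-boxes alone. Lamp1 shows 4 circles between -61 and -15, and Gla 2 squares at -227 and -194.

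The depth of the libraries was 10928239 and 11809635 counts in resistant cells, against 13048103 and 10346007 counts in sensitive cells. The 11 B-cell marker genes examined were all found, and 10 of 11 were not called, the exception being Cd22, which was higher in resistant cells. The called share was 9.09%, against 3.73% of all tested genes. Log2 changes were positive in 8 of 11, with a median of 0.12 against 0.0033 over all tested genes. An unadjusted edgeR p below 0.05 was found in 5 of 11 (45.45%), against 16.9% of all tested genes. Of the 4 tested plasma-cell markers, Sdc1 was called lower (25% of the 4) and 3 others were not called. Of 14 macrophage and myeloid markers, cells rich in lysosomes, 6 were found, with a summed level of 4.97 to 5.31 CPM (counts relative to the TMM-scaled library total, the usual counts-per-million unit) in resistant libraries and 5.24 to 6.32 CPM in sensitive libraries. The 2 of them that could be tested, Mrc1 (log2 change -0.54) and Itgam (0.40), were not called, and the other 4 had at most 5 counts in any library. T-cell and NK markers summed to at most 1.01 CPM and erythroid markers to at most 0.680 CPM in any library. Of 8 fibroblast and endothelial markers 2 were found, Pecam1 and Cdh5, which summed to 89.0 and 90.3 CPM in resistant libraries and 88.6 and 100.3 CPM in sensitive libraries. Nearly all of that was Pecam1, which is also expressed by blood cells, and neither gene was called. What part such cells had in the members' levels was not tested.

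None of the 48 tested members differed between the resistant and the sensitive line at an adjusted p below 0.05 (edgeR), where 3.73% of all 11945 tested genes did. DESeq2 (1.74% of all genes called), limma-voom (3.69%) and the fit with a replicate block (4.98%) also called 0 of 48. So did edgeR with DESeq2 factors (3.68%) or library size alone (3.56%) as the scaling, with no filter (2.94%), with a minimum count of 30 (3.76%), and without resistant replicate 1 (2.45%) or 2 (2.21%). Without sensitive replicate 1 (11.3% of all genes called) or 2 (9.68%), 3 members were called each time. At an unadjusted p below 0.05 there were 4 members, Ulk1, Sqstm1, Atg10 and Gusb, or 8.33% of the members against 16.9% of tested genes. A share of 0 in 48 is near the background share, so the count by itself does not set these genes apart. Of the 48, 26 had a positive and 22 a negative log2 change, with a median of 0.011 against 0.0033 over all tested genes. Summed over all 53 members, the level was 3120 and 3084 CPM in resistant libraries and 3073 and 3094 CPM in sensitive libraries, which overlap.

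Because a test that is not passed does not show that 2 lines are alike, the 95% interval of each log2 change was also read. For 44 of the 48 members (91.7%) the interval lay wholly within a 1.5-fold change in either direction, and for 47 it lay within 2-fold. Over all tested genes 74.99% had an interval within 1.5-fold. Of the 227 other tested genes of the same pathway, described below, 88.55% did, a share close to that of the members. The 4 members with wider intervals were Atg10 (0.056 to 1.10), Map1lc3a (-0.82 to 0.98), Atg16l2 (-0.022 to 0.60) and Atg4c (-0.081 to 0.59). By level per kilobase of exons these 4 ranked between 43 and 48 of the 53. Mcoln1 and Tfe3, at ranks 44 and 47, had intervals within 1.5-fold. These intervals hold for single genes and were not widened for the number of genes.

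The differences between the lines were set beside those within a line. The median absolute log2 difference of the 48 members was 0.074 between the lines, 0.073 between the 2 resistant libraries and 0.11 between the 2 sensitive libraries. Over all tested genes the same medians were 0.108, 0.0842 and 0.119. The value between the lines is a difference of averages of 2 libraries, which vary less than single libraries, so these sizes are given as a description. For 10 of 48 members (20.8%) the difference between the lines exceeded that within both pairs, against 34.4% of all tested genes. The 2 resistant libraries both lay above or both below the 2 sensitive libraries in 18 of 48 members (37.5%), against 47.3% of tested genes.

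**Figure D2:**
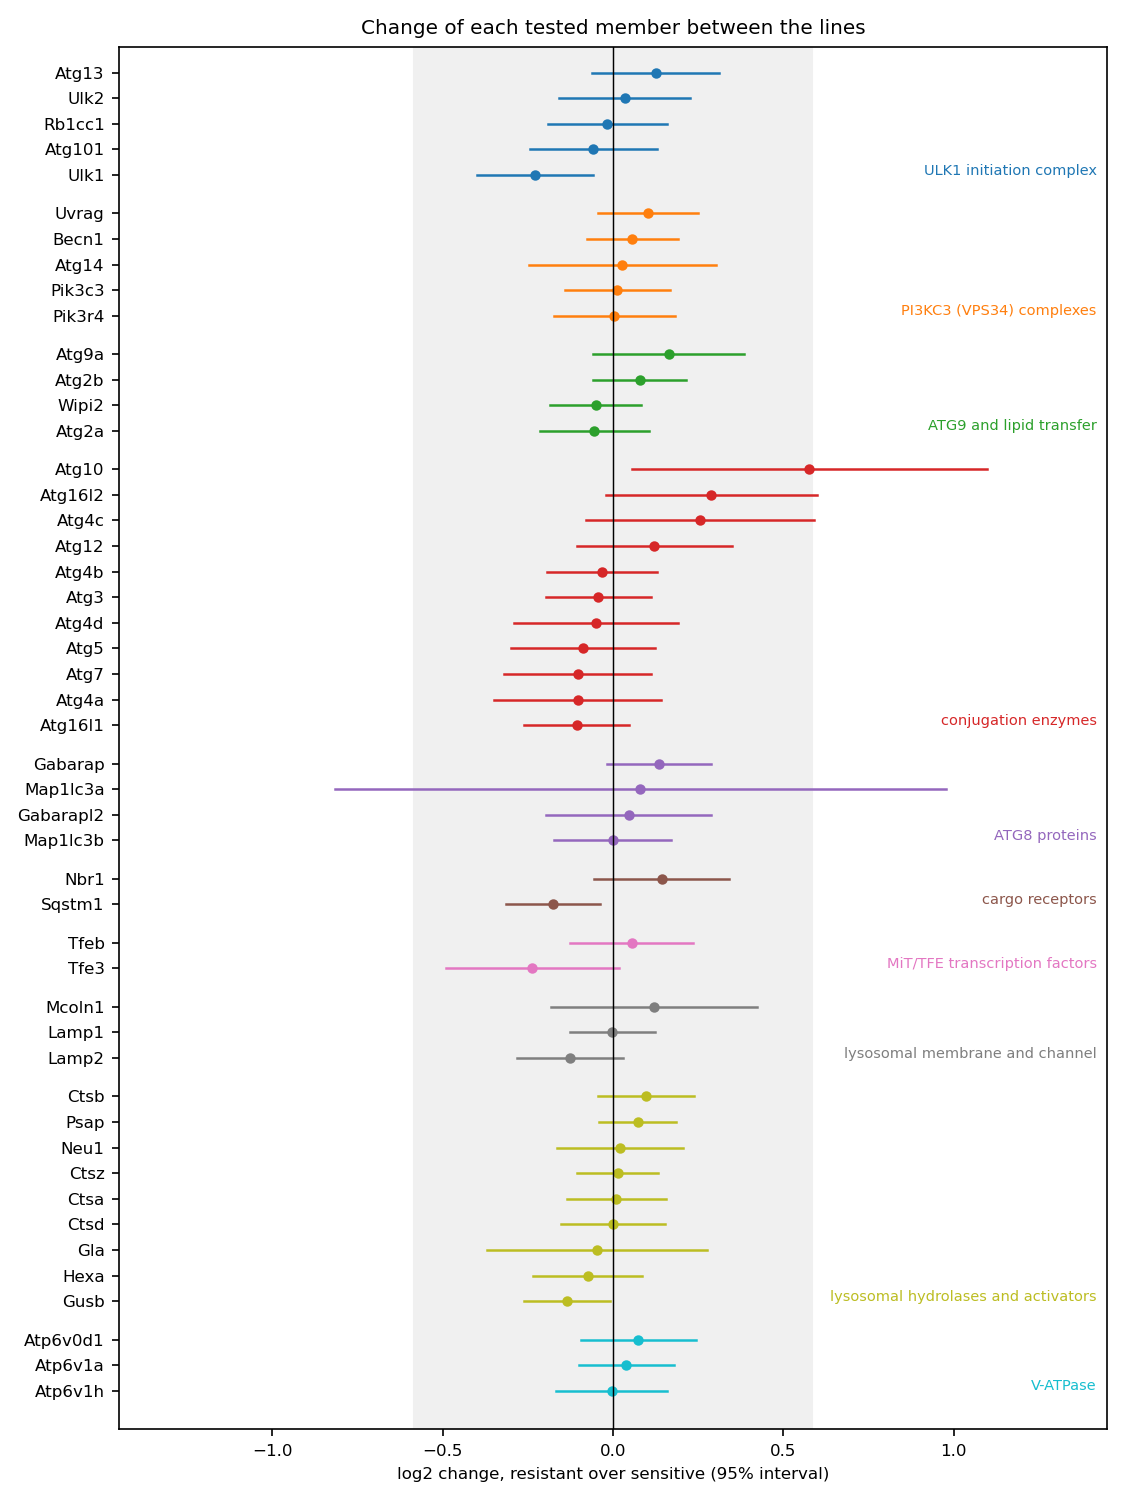
Log2 change of each of the 48 tested members, resistant over sensitive, with its 95% interval (points and bars, coloured by role), and a grey band that marks a 1.5-fold change in either direction. All intervals except those of Atg10, Atg16l2, Atg4c and Map1lc3a lie within the band, and the points spread to both sides of 0.

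**Figure D3:**
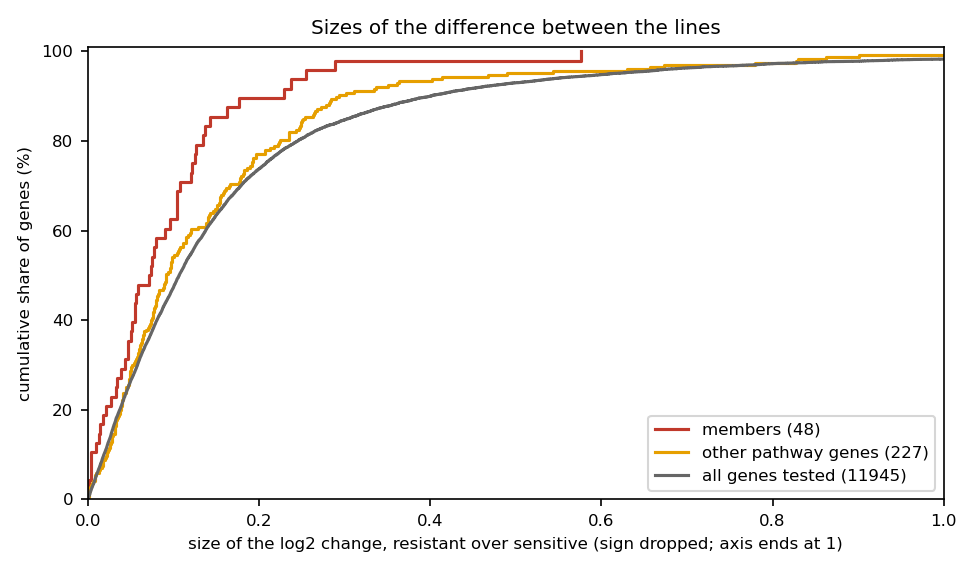
Cumulative share of genes (vertical axis, percent) by the absolute log2 change between the lines (horizontal axis, cut at 1) for the members, the other pathway genes and all tested genes. The curve of the 48 members lies left of that of all tested genes and ends at 0.58, the value of Atg10.

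At the start of the pathway, the 5 genes of the ULK1 complex included the member with the smallest p of all 48. Ulk1, the kinase that starts autophagosome formation (chromosome 5, 110784488 to 110810097), stood at 47.7 and 45.4 CPM in resistant cells and at 51.4 and 58.0 CPM in sensitive cells. Both resistant libraries were thus below both sensitive ones. Its log2 change was -0.23 ± 0.08 (SE), with an interval of -0.40 to -0.059 and an adjusted p of 0.144. The value depended on the sensitive libraries, at -0.32 without sensitive replicate 1, where the adjusted p was 0.00208, and -0.15 without sensitive replicate 2, where it was 0.273. The other 4 genes lay closer to 0. They were Ulk2, a second ULK kinase (0.034), Atg13 (0.12) and Atg101 (-0.058), subunits that hold the complex together, and Rb1cc1, which encodes its scaffold FIP200 (-0.017).

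All 5 genes of the VPS34 lipid kinase complexes had log2 changes between 0.0033 and 0.10, none of which passed the test. Becn1, which encodes the Beclin 1 subunit (chromosome 11, 101285952 to 101302286), was measured at 120 and 119 CPM in resistant cells and at 119 and 110 CPM in sensitive cells. The gap between the lines was narrower than that within the sensitive pair, and the log2 change was 0.056 ± 0.063, with an interval of -0.077 to 0.19. Of the exonic bases of Becn1, 43.9% overlap Cntd1 on the other strand, and the strand setting of the counting is not given in the sources used here, so its counts are uncertain. Smaller overlaps of this kind are found in Atg4d (19.3%), Uvrag (17.6%), Ctsa (17.4%) and Sqstm1 (17.3%), among other members. The catalytic subunit gene Pik3c3 (0.013) and its regulatory partner Pik3r4 (0.0033) were not called either, with intervals of -0.14 to 0.17 and -0.17 to 0.18. Atg14, which directs the complex to autophagosomes, had a log2 change of 0.027, and Uvrag, which directs it to later endosomal steps, one of 0.10.

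Membrane supply was represented by Atg9a, the scramblase of the vesicles that seed the autophagosome, by the lipid-transfer genes Atg2a and Atg2b, and by Wipi1 and Wipi2, whose proteins read the lipid mark. Atg9a stood at 19.7 and 20.7 CPM in resistant cells and at 18.1 and 17.98 CPM in sensitive cells. The pairs did not overlap, and the log2 change was 0.16 ± 0.10 (adjusted p = 0.462). Atg9a also shares 31.8% of its exonic bases with a gene on the same strand. Atg2a (-0.055), Atg2b (0.078) and Wipi2 (-0.051) had smaller changes. Wipi1 was scarcely detected, with 2 and 2 counts in resistant libraries and 2 and 1 counts in sensitive libraries, and was not tested.

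Among the 11 conjugation genes, 4 had positive and 7 negative log2 changes and none passed the test. Atg10, whose product is the E2-like enzyme that joins ATG12 to ATG5 (chromosome 13, 90935356 to 91223968), had the largest change of all members. It stood at 3.66 and 3.28 CPM in resistant cells and at 2.39 and 2.24 CPM in sensitive cells. Every resistant library was above every sensitive one, but the gene was weakly expressed, and the log2 change of 0.58 ± 0.25 had an adjusted p of 0.239. Over the alternatives that left out 1 library its log2 change ranged from 0.50 to 0.66 and its adjusted p was 0.270 or more.

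Atg16l2, a homolog of the conjugation scaffold Atg16l1, was measured at 19.4 and 20.1 CPM in resistant cells and at 13.2 and 19.7 CPM in sensitive cells. Sensitive replicate 1 was low, while sensitive replicate 2 lay between the resistant libraries. Its log2 change was 0.29 ± 0.15 (adjusted p = 0.339), or 0.58 without sensitive replicate 2 (adjusted p = 3.76e-04) and 0.0034 without sensitive replicate 1 (adjusted p = 0.992). Atg4c, a protease that trims ATG8 proteins, stood at 10.3 and 8.50 CPM in resistant cells and at 7.32 and 8.45 CPM in sensitive cells, a gap of 0.25 ± 0.16 on the log2 scale (adjusted p = 0.446).

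The remaining conjugation genes had log2 changes from -0.11 to 0.12. They were the related proteases Atg4a (-0.10), Atg4b (-0.032) and Atg4d (-0.050), the E1-like enzyme gene Atg7 (-0.10), the E2-like gene Atg3 (-0.044), Atg5 (-0.090), Atg12 (0.12) and Atg16l1 (-0.11). Atg3, which has both an E-box and the palindrome in its promoter window, stood at 52.9 ± 2.14 CPM in resistant cells and 54.6 ± 0.089 CPM in sensitive cells (mean ± SD, n = 2 each).

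The ATG8 proteins coat the autophagosome membrane and bind cargo receptors. Map1lc3b, which encodes LC3B (chromosome 8, 121590361 to 121598760), was measured at 46.1 and 49.6 CPM in resistant cells and at 45.4 and 50.8 CPM in sensitive cells. The libraries of the lines overlapped, and the log2 change was -0.0017 ± 0.082, with an interval of -0.17 to 0.17. Gabarap stood at 69.9 and 64.6 CPM in resistant cells and at 59.7 and 62.9 CPM in sensitive cells, with a log2 change of 0.13 ± 0.07 (adjusted p = 0.371).

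Gabarapl2 showed the spread of the sensitive pair, at 35.8 and 37.0 CPM in resistant cells and 40.3 and 29.4 CPM in sensitive cells. Its log2 change of 0.046 had the opposite sign without sensitive replicate 2 (-0.15, adjusted p = 0.323) and was called without sensitive replicate 1 (0.31, adjusted p = 0.0272). Map1lc3a was weak, at 1.37 and 1.01 CPM in resistant cells and 0.771 and 1.55 CPM in sensitive cells. Gabarapl1 had 2 and 1 counts in resistant libraries and 1 and 2 counts in sensitive libraries, so a difference was not detectable at this depth.

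Cargo receptors tie ubiquitinated material to ATG8 proteins and are themselves degraded by autophagy. Sqstm1, which encodes p62 (chromosome 11, 50199366 to 50210827), stood at 86.8 and 81.6 CPM in resistant cells and at 93.6 and 96.7 CPM in sensitive cells. The pairs did not overlap. Its log2 change was -0.18 ± 0.07, with an interval of -0.32 to -0.037 and an adjusted p of 0.169. It was called only without sensitive replicate 1 (-0.20, adjusted p = 0.0290), and the adjusted p over the other alternatives that left out a library ran from 0.112 to 0.823.

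Nbr1, a related receptor, was at 66.0 and 66.0 CPM in resistant cells and at 52.7 and 67.6 CPM in sensitive cells. Sensitive replicate 1 was the low library, and the log2 change of 0.14 became 0.32 without sensitive replicate 2 (adjusted p = 5.98e-04) and -0.035 without sensitive replicate 1 (adjusted p = 0.839). Optn, the gene of the receptor optineurin, had 6 and 5 counts in resistant libraries and 2 and 2 counts in sensitive libraries, too few to test.

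Of the MiT/TFE factors, Tfeb was the most abundant. Tfeb (chromosome 17, 47737030 to 47792419) stood at 34.7 and 35.5 CPM in resistant cells and at 34.99 and 32.5 CPM in sensitive cells. The lines overlapped, with a log2 change of 0.055 ± 0.085 and an interval of -0.13 to 0.24. Tfe3 (chromosome X, 7762560 to 7775202) was measured at 12.4 and 13.3 CPM in resistant cells and at 14.8 and 15.5 CPM in sensitive cells. Here the resistant pair lay below the sensitive pair, by -0.24 ± 0.12 on the log2 scale (interval -0.49 to 0.017, adjusted p = 0.337). Mitf had 4 and 6 counts in resistant libraries and 9 and 5 counts in sensitive libraries and was not tested. Per kilobase of exons, the mean level over the 4 libraries was 6.07 CPM per kb for Tfeb, 1.51 for Tfe3 and 0.083 for Mitf.

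The lysosomal membrane genes differed little. Lamp1, a main glycoprotein of the lysosomal membrane, stood at 152 and 147 CPM in resistant cells and at 151 and 149 CPM in sensitive cells. Its interval was among the narrowest of the members, at -0.13 to 0.12 around a log2 change of -0.0030. Lamp2, needed for fusion with autophagosomes and for chaperone-mediated autophagy, stood at 60.5 and 60.1 CPM in resistant cells and at 69.2 and 62.1 CPM in sensitive cells (-0.13 ± 0.07, adjusted p = 0.410).

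Mcoln1 encodes the calcium channel TRPML1, which lies upstream of TFEB activation in human cells. It was at 15.01 and 20.3 CPM in resistant cells and at 14.8 and 18.1 CPM in sensitive cells. The replicates of each line differed more than the lines did, and the log2 change was 0.12 ± 0.14 with an interval of -0.18 to 0.42.

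Lysosomal hydrolases and their activators included the member with the highest level, Psap, and one of the lowest, Ctsl. Psap, the precursor of saposins, which help enzymes to degrade sphingolipids (chromosome 10, 60277627 to 60302597), stood at 514 and 517 CPM in resistant cells and at 480 and 501 CPM in sensitive cells. The pairs did not overlap, yet the log2 change was only 0.072 ± 0.054 (interval -0.043 to 0.19, adjusted p = 0.543). Gusb, the beta-glucuronidase gene (chromosome 5, 129989011 to 130003049), was lower in both resistant libraries, at 170 and 159 CPM, against 183 and 178 CPM in sensitive cells. Its log2 change of -0.14 ± 0.06 had an adjusted p of 0.252, or 0.0486 without sensitive replicate 2.

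Ctsb, a cysteine protease, stood at 103 and 98.1 CPM in resistant cells and at 97.8 and 90.4 CPM in sensitive cells (0.096 ± 0.066, adjusted p = 0.504). Ctsd, the main aspartic protease of lysosomes, was at 57.3 and 59.7 CPM in resistant cells and at 60.0 and 56.9 CPM in sensitive cells. The lines overlapped, and its log2 change was -4.1e-04 ± 0.072, with an interval of -0.15 to 0.15. A gene annotated on the same strand shares 34.4% of the exonic bases of Ctsd.

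The cathepsin genes Ctsa (0.0098) and Ctsz (0.014), the sialidase gene Neu1 (0.021), the alpha-galactosidase gene Gla (-0.046) and the hexosaminidase gene Hexa (-0.075) were also not called. Ctsl, abundant in many other tissues, had 8 and 6 counts in resistant libraries and 11 and 9 counts in sensitive libraries and was not tested. Summed over the 10 genes of this group, the level was 1244 and 1217 CPM in resistant libraries and 1204 and 1227 CPM in sensitive libraries.

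The 3 genes of the V-ATPase, the proton pump that acidifies the lysosome, had log2 changes from -0.0041 to 0.074. They were Atp6v1h (-0.0041) and Atp6v1a (0.039) of the soluble sector and Atp6v0d1 (0.074) of the membrane sector. Their sum was 184 and 187 CPM in resistant libraries and 187 and 175 CPM in sensitive libraries. Atp6v1a and Atp6v0d1 both hold the palindrome.

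**Figure D4:**
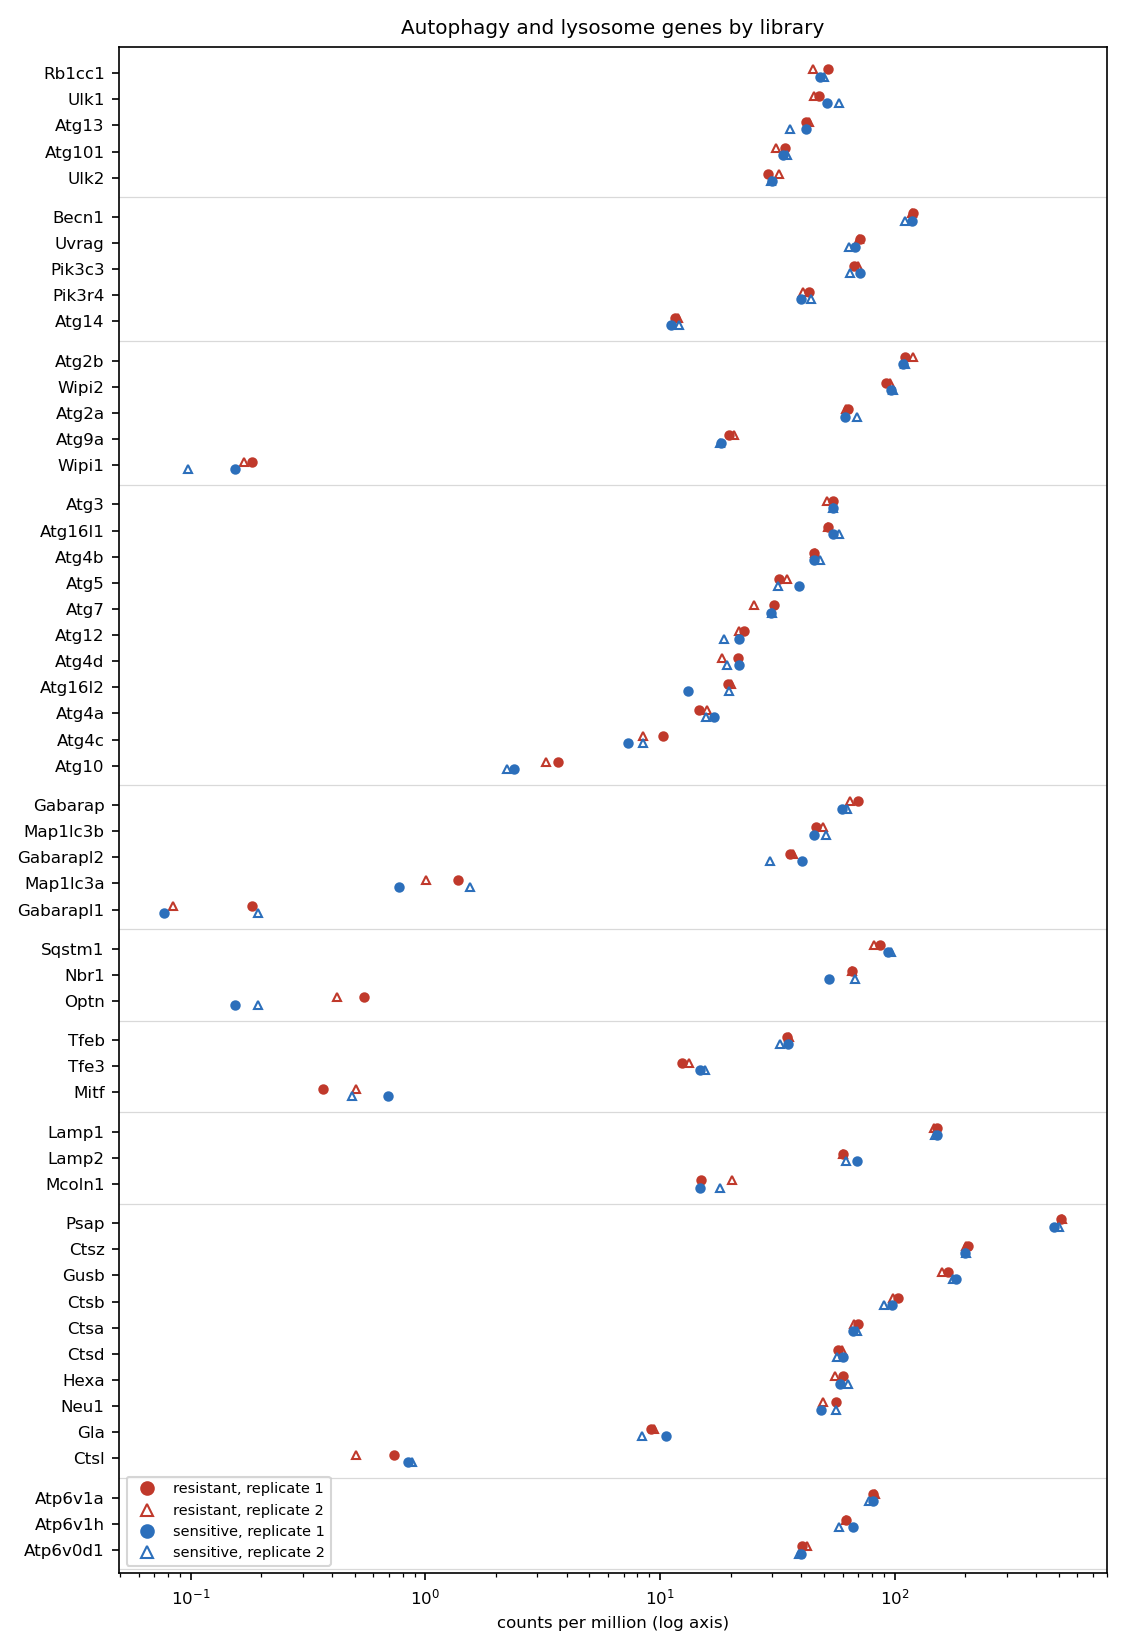
Level of each of the 53 members in each library, in CPM on a log axis, by role from top (ULK1 complex, VPS34 complexes, ATG9 and lipid transfer, conjugation, ATG8, receptors, MiT/TFE factors, membrane, hydrolases, V-ATPase). Resistant libraries are red and drawn above the blue sensitive libraries of the same gene. Levels run from under 0.2 CPM for Wipi1 and Gabarapl1 to 517 CPM for Psap, and the lines lie close together except near the bottom of the range.

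Levels spanned a wide range among the members. Per kilobase of exons, the highest mean levels over the 4 libraries were those of Psap (183 CPM per kb), Ctsz (140), Lamp1 (56.0), Gusb (37.9) and Gabarap (34.9). Within the autophagy genes, Sqstm1 (26.7 CPM per kb), Atg101 (20.9) and Atg3 (17.0) followed Gabarap. Lengths are those of all annotated exons of a gene together, which lowers the value of genes with long rare exons. The 5 members that were not tested (Wipi1, Gabarapl1, Optn, Mitf and Ctsl) were also the 5 lowest per kilobase.

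Members with and without an E-box both had changes to either side of 0. Of the 12, 11 were tested, and their log2 changes ran from -0.10 to 0.12 with a median of -4.1e-04. The 29 tested members with a window and no E-box had changes from -0.24 to 0.58 and a median of 0.014. This comparison is a description without a test.

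Other genes of the same pathway, 227 tested of 259 listed, changed in 13 cases, 10 higher and 3 lower in resistant cells. That is 5.73% of them against 3.73% of all tested genes, beside 2.20% of all tested genes called higher and 1.52% called lower. DESeq2 called 4 of the 13, Litaf, Ddit4, Igf2r and Tcirg1. The median log2 change of the 227 genes was 0.035, against 0.0033 over all tested genes. Before adjustment, 53 of the 227 (23.35%) had an edgeR p below 0.05, against 16.9% of all tested genes. By list this share was highest for hydrolases (33.33%). It was below that of all tested genes for autophagosome formation (13.64%), fusion (14.3%) and enzyme sorting (16.67%). Both resistant libraries lay on the same side of both sensitive ones in 55.5% of the 227, against 47.3% of tested genes.

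Litaf, whose product acts in sorting to late endosomes and lysosomes, rose to 77.7 and 72.1 CPM in resistant cells, against 39.4 and 40.9 CPM in sensitive cells. Its log2 change was 0.90 ± 0.07 (adjusted p = 8.14e-07). Igf2r, the receptor that carries mannose-6-phosphate-tagged hydrolases to the lysosome, rose to 15.6 and 15.4 CPM, against 7.32 and 10.4 CPM in sensitive cells (0.83 ± 0.15, adjusted p = 0.00362). Ddit4, an inhibitor of mTORC1, the kinase complex that represses autophagy, rose to 116 and 122 CPM, against 67.4 and 87.2 CPM in sensitive cells (0.63 ± 0.09, adjusted p = 4.11e-04). In all 3 genes the resistant libraries lay above both sensitive libraries.

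Tcirg1, which encodes a membrane subunit of the V-ATPase, fell to 29.4 and 31.1 CPM in resistant cells, against 45.1 and 39.6 CPM in sensitive cells (-0.49 ± 0.09, adjusted p = 0.00378). None of the other 14 tested V-ATPase genes of that list changed in edgeR. The called share of the list was 6.67%, against 3.73% of all tested genes. The 4 calls shared with DESeq2 held without each library in turn.

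Lysosomal hydrolases outside the members had a median log2 change of 0.088, against 0.0033 over all tested genes. Of 39 tested, 0 fell and 3 rose (7.69% called, against 3.73% of all tested genes). They were Siae, a sialic acid acetylesterase, at 3.02 and 2.78 CPM in resistant cells and 0.925 and 0.972 CPM in sensitive cells (1.60 ± 0.32), and the glycosaminoglycan-degrading enzymes Idua (0.66) and Naglu (0.36). Naglu stood at 28.7 and 28.5 CPM in resistant cells and at 22.7 and 21.9 CPM in sensitive cells. DESeq2 did not call Siae (adjusted p = 0.161), Idua (0.435) or Naglu (0.443). Idua was not called without resistant replicate 2 (adjusted p = 0.263), and Naglu was called neither without resistant replicate 1 (0.215) nor without resistant replicate 2 (0.228).

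Of 36 other lysosomal membrane genes 2 rose (5.56%, against 3.73% of all tested genes called), Litaf and the lipid transporter gene Abca2 (0.35 ± 0.09). Of 18 genes of enzyme sorting 2 rose (11.1%), Igf2r and the clathrin adaptor gene Gga2 (0.27 ± 0.07). Both calls were lost when either resistant library was left out, with adjusted p-values of 0.193 (replicate 1) and 0.192 (replicate 2) for Abca2 and of 0.176 and 0.414 for Gga2. DESeq2 called neither (adjusted p = 0.352 and 0.270).

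In the other autophagosome genes 1 of 22 rose, near the share of all tested genes (4.5% against 3.73% called). It was the ULK-related kinase Ulk3 (0.54 ± 0.13), with 12.9 and 15.2 CPM in resistant cells and 9.63 and 9.72 CPM in sensitive cells. Ulk3 was not called without resistant replicate 2 (adjusted p = 0.406) or by DESeq2 (0.398). Of 21 other receptors and adaptors 1 rose and 1 fell (9.52% called). Bnip3, a mitophagy receptor, stood at 87.4 and 98.0 CPM in resistant cells and at 43.6 and 74.3 CPM in sensitive cells, and its log2 change of 0.67 became 0.32 without sensitive replicate 1 and 1.09 without sensitive replicate 2. DESeq2 did not call Bnip3 (adjusted p = 0.829), and 22.3% of its exonic bases overlap a gene on the other strand. Wdfy3, a scaffold for the clearance of protein aggregates, fell (-0.33 ± 0.09) to 47.9 and 47.6 CPM, against 55.0 and 65.9 CPM in sensitive cells. Its call was lost without resistant replicate 1 (adjusted p = 0.121), resistant replicate 2 (0.167) or sensitive replicate 2 (0.0733), with library-size scaling (0.0561) and in DESeq2 (0.208).

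None of the 21 tested genes of autophagosome-lysosome fusion was called in edgeR or DESeq2, and 3 of them (14.3%) had an edgeR p below 0.05 before adjustment, against 16.9% of all tested genes. Of 38 mTORC1 and AMPK genes 1 rose, Ddit4 (2.63% called, against 3.73% of all tested genes). Among 18 regulators of transcription 1 fell (5.56% called), Carm1, an arginine methyltransferase that acts as a coactivator of autophagy genes (-0.25 ± 0.06). Carm1 was no longer called when resistant replicate 1 (adjusted p = 0.133) or 2 (0.441) was left out, nor in DESeq2 (0.0818), and 21.1% of its exonic bases overlap a gene on the other strand.

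Ehmt2, which encodes the methyltransferase G9a (-0.028), and Zkscan3, a repressor of autophagy genes in human cells (0.040), were not called. Myc was at 1442 and 1379 CPM in resistant cells and at 1449 and 1667 CPM in sensitive cells (-0.14, adjusted p = 0.250). These counts do not separate RNA of the enhancer-driven Myc from that of the native gene. Without sensitive replicate 1 Myc was called at -0.24 (adjusted p = 7.02e-07), and with sensitive replicate 2 left out its value was -0.040.

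**Figure D5:**
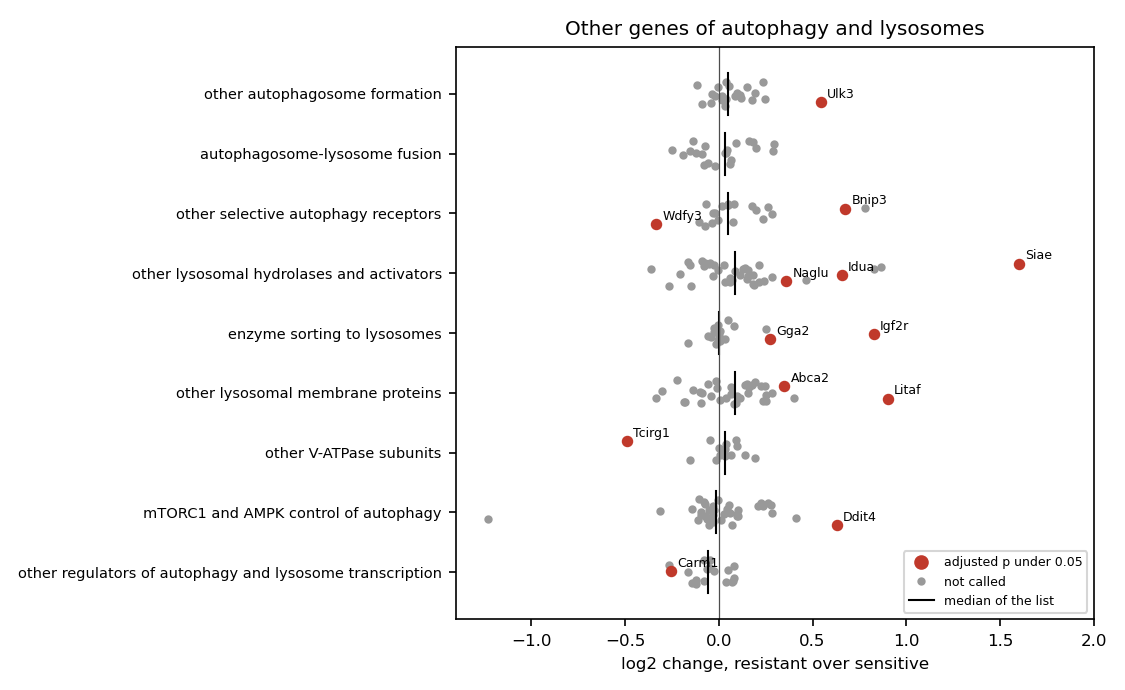
Log2 change, resistant over sensitive, of tested genes in 9 lists of other pathway genes (points, with random vertical offsets), with called genes in red and named and the median of each list as a black bar. The medians lie between -0.057 and 0.088, and the called genes are scattered over 8 of the lists.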

How the data were processed

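The deposited values are the authors' whole-number read counts by Ensembl gene, not normalized. Per the submitters' processing notes, the tools included TopHat, Bowtie2 and HTSeq, besides FastQC, limma and cutadapt 1.7, and the builds were mm10 and GRCm38. Their roles, the annotation release and the strand setting of the counting are not stated there. The smallest summed count of a gene was 4. Symbols and positions come from GENCODE M21 (GRCm38), which matched 16393 of 16591 identifiers, and promoter windows from RefSeq (GRCm38.p6), matched by symbol.

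The titles give the group of each library, 2 per line. Counts were fitted in edgeR 4.0.16 (R 4.3.3) by the quasi-likelihood test with TMM factors, the group alone as the model and filterByExpr (minimum count 10, minimum total 15), which left 11945 genes. P-values were adjusted by Benjamini-Hochberg over all of these, and a gene was called at an adjusted p below 0.05. P-values measure the spread between these libraries, which may be technical. Standard errors and 95% intervals derive from the F statistic. The steps were tested on simulated data, drawn with the spread that was fitted for each gene. Changed genes were taken from those with a mean above 2 CPM, so weaker members such as Map1lc3a were not covered. Of 50 genes changed 1.25-fold there 18 were recovered, of 50 changed 1.5-fold 43, and of 50 changed 2-fold 48. Most differences of 1.25-fold or less would thus be missed. In the same simulated data 14 unchanged genes were called, where 11798 genes were tested in all. The members and lists were chosen with earlier results of these data known. Values in every library are given for the 10 members of smallest p, for 15 set members, and for members that 1 library decides; the last were chosen after their values were seen. Of the other lists, called genes are named, with Ehmt2, Zkscan3 and Myc; 1 other regulator is not reported here. Alternatives were other scalings and filters, DESeq2 1.42.0, limma-voom (limma 3.58.1), a replicate block, each library left out and a narrower promoter window.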

Additional observations from a re-analysis of the deposited data

How the results depend on the processing

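The count of called members was 0 with both other edgeR scalings, with no filter, with a minimum count of 30, in DESeq2, in limma-voom and with the replicate block, and ranged from 0 to 3 with 1 library left out. It was 3 without sensitive replicate 1 (Ulk1, Sqstm1 and Gabarapl2) and 3 without sensitive replicate 2 (Atg16l2, Nbr1 and Gusb), where 11.3% and 9.68% of all tested genes were called. There the spread comes from the resistant pair, and the lone sensitive library is assumed to vary like that pair. The count over all genes was 445, against 208 in DESeq2, and ranged from 270 to 1381 with 1 library left out. Among other pathway genes it was 13, against 4 in DESeq2 and 22 with the replicate block, and ranged from 8 to 34 with 1 library left out. Over all tested genes, the deviations of same-numbered libraries from their line's mean had a correlation of -0.020. This single value cannot show whether same-numbered libraries shared a culture or batch. The block raised the count over all genes to 595. The cause of these moves was not tested. The narrower promoter window left 11 members with the E-box.

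Several log2 changes near 0 changed sign. With library-size scaling they were 0.011 for Map1lc3b, 0.0091 for Lamp1, 0.012 for Ctsd and 0.0081 for Atp6v1h. With the replicate block they were 2.2e-04 for Ctsd and 0.0016 for Atp6v1h, in limma-voom 9.2e-04 for Map1lc3b and in DESeq2 -7.7e-04 for Pik3r4. With 1 library left out the ranges that crossed 0 were Ulk2 -0.044 to 0.10, Atg101 -0.12 to 0.0063, Rb1cc1 -0.12 to 0.084, Pik3c3 -0.054 to 0.089, Pik3r4 -0.075 to 0.074, Atg14 -0.036 to 0.081, Atg2a -0.15 to 0.031, Atg4b -0.078 to 0.0084, Atg4d -0.17 to 0.068, Atg5 -0.22 to 0.073, Atg7 -0.25 to 0.038, Map1lc3a -0.39 to 0.61, Map1lc3b -0.085 to 0.076, Gabarapl2 -0.15 to 0.31, Nbr1 -0.035 to 0.32, Lamp1 -0.027 to 0.021, Mcoln1 -0.12 to 0.31, Ctsa -0.023 to 0.038, Ctsd -0.038 to 0.042, Ctsz -0.0014 to 0.028, Gla -0.20 to 0.15, Neu1 -0.092 to 0.13, Atp6v1h -0.095 to 0.10, Ehmt2 -0.071 to 0.013 and Zkscan3 -0.047 to 0.12. At these depths a member near 1 CPM could be measured only to within about 2-fold.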
